A study of Caenorhabditis elegans with 22 samples.

Results

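The genes described here build the contractile apparatus of Caenorhabditis elegans muscle. They are 36 genes for sarcomere proteins and their anchors, each read through the probe sets annotated with its symbol. Of the 36, 34 had at least 1 probe set annotated to that gene alone, through 70 such probe sets, and all 34 passed the filter on low values. act-1 and act-2, which encode actins, were read only by probe sets shared with other actin genes. The whole array held 17118 genes with a probe set of 1 symbol, of which 9652 were tested. Among the 34 measured members, 5 are known from the pharynx (myo-1, myo-2, tnt-4, tni-4 and tnc-2). They were set against the other 29 measured members, which serve body wall and other muscle.

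The worms were hermaphrodite young adults of the Bristol N2 background, all raised from eggs laid within 4 hours. The groups were isp-1(qm150) ced-4(n1162) double mutants, isp-1(qm150), nuo-6(qm200);ced-4(n1162) double mutants, nuo-6(qm200), ced-4(n1162), wild type on 0.1 mM paraquat and untreated wild type. There were 3 arrays of each group and 4 of untreated wild type, 22 in all. The isp-1 product is the Rieske iron-sulphur protein of complex III in the mitochondrial respiratory chain, and that of nuo-6 belongs to complex I. The CED-4 protein, a relative of Apaf1, activates the CED-3 caspase, and paraquat generates superoxide in cells. RNA came from whole worms, so that fewer cells of a type and less RNA per cell cannot be told apart. The labels name the arrays biological replicates without naming separate cultures, and the p-values measure the spread between these arrays.

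In muscle, myosin thick filaments pull on actin thin filaments when calcium binds troponin and moves tropomyosin off the myosin binding sites. In C. elegans the body wall muscles, which drive locomotion, and the pharynx, the pumping feeding organ, use different genes for several of these parts. myo-1 and myo-2 encode myosin heavy chains of the pharynx, and tnt-4, tni-4 and tnc-2 encode pharyngeal troponin T, I and C. The body wall relies on the heavy chains myo-3 and unc-54 and on troponin C from pat-10.

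Levels are log2 expression values, and a difference of 1 is a change of 2-fold. A gene was represented by the probe set of 1 symbol with the highest mean over all arrays. It was called when limma's moderated test, with Benjamini-Hochberg adjustment over 12639 probe sets, gave an adjusted p under 0.05. Levels of different probe sets are not comparable with each other.

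The ced-4 transcript checked the ced-4 labels. Its level was 5.70 ± 0.16 in isp-1 ced-4, 5.09 ± 0.16 in nuo-6 ced-4 and 5.72 ± 0.15 in ced-4 worms, against 7.62 ± 0.26 in wild type (SD, n = 3 for each mutant and n = 4 for wild type). The isp-1 and nuo-6 transcripts were not lower in their own mutants and check nothing. One wild-type array stood apart in the genes described here. Wild type replicate 1 lay below the other 3 wild-type arrays in 5 of 5 pharyngeal members, by a median of 2.60 on the log2 scale, and in 17 of 29 other members, where the median over the 29 was 0.18 lower. The share of all probe sets in which it was the lowest wild-type array was not counted. Whether these counts go beyond a shift of the whole array was therefore not tested. Across all probe sets its closest array outside its own group was ced-4 replicate 1 (r = 0.964, against 0.945 to 0.974 with the other wild-type arrays). The pharyngeal results against wild type are therefore given with and without that array, an alternative chosen after the data were seen, as are the calls of other members that changed. The comparisons of double mutants with single mutants do not use it other than through the shared estimate of the spread. That array widened the estimate in the pharyngeal members, so a missing call there does not show that a gene was unchanged. For tnt-4 the SD was 1.8 in wild type and between 0.2 and 0.7 in the other groups. The array closest to isp-1 replicate 1 came from another group, nuo-6 replicate 1 (r = 0.993, against 0.967 to 0.976 with the other isp-1 arrays).

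The pharyngeal genes were lowest in isp-1 ced-4 worms. Their difference from isp-1 worms asks how loss of ced-4 alters the isp-1 mutant. All 5 pharyngeal members fell, by 4.99-fold to 19.6-fold. The median difference of the 5 was -2.82, against -0.49 over the 29 other members and 0.03 over all probe sets tested. Of the 34 members, 23 fell and 1 rose, where 17.2% of all probe sets were called lower and 16% higher.

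The largest of these differences was in tnt-4, the pharyngeal troponin T. Its level was 4.90, 5.09 and 5.29 on the isp-1 ced-4 arrays, against 8.88, 10.03 and 9.25 on the isp-1 arrays. The difference was -4.29 (SE 0.67, limma adjusted p = 0.000318, 19.6-fold lower). The 2 groups were separated by more than 3 log2 units at their nearest arrays.

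myo-1, a pharyngeal myosin heavy chain, read 6.13, 6.33 and 6.66 in isp-1 ced-4, against 9.27, 10.32 and 9.74 in isp-1. It fell by 3.40 on the log2 scale (SE 0.51, limma adjusted p = 0.000249, 10.6-fold lower). A further myo-1 probe set gave a difference of -2.63 (limma adjusted p = 0.00155), with the groups again apart. The other pharyngeal heavy chain, myo-2, read 4.50, 4.35 and 4.96 in isp-1 ced-4, against 6.44, 8.39 and 7.39 in isp-1. Here isp-1 replicate 1 was the lowest isp-1 array, and the difference was -2.80 (SE 0.61, limma adjusted p = 0.00243).

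The remaining pharyngeal troponins followed the same order. tnc-2, troponin C, read 5.39, 4.97 and 5.21 in isp-1 ced-4, against 7.39, 8.49 and 8.15 in isp-1, a difference of -2.82 (SE 0.43, limma adjusted p = 0.000257). tni-4, troponin I, read 7.54, 7.21 and 7.22 in isp-1 ced-4, against 9.48, 10.07 and 9.38 in isp-1, a difference of -2.32 (SE 0.35, limma adjusted p = 0.000236). In each of the 5 pharyngeal genes every double-mutant array lay below every isp-1 array, a separation that 23% of all probe sets showed in that direction. All 5 calls held when any 1 of the 6 arrays was left out.

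**Figure D1:**
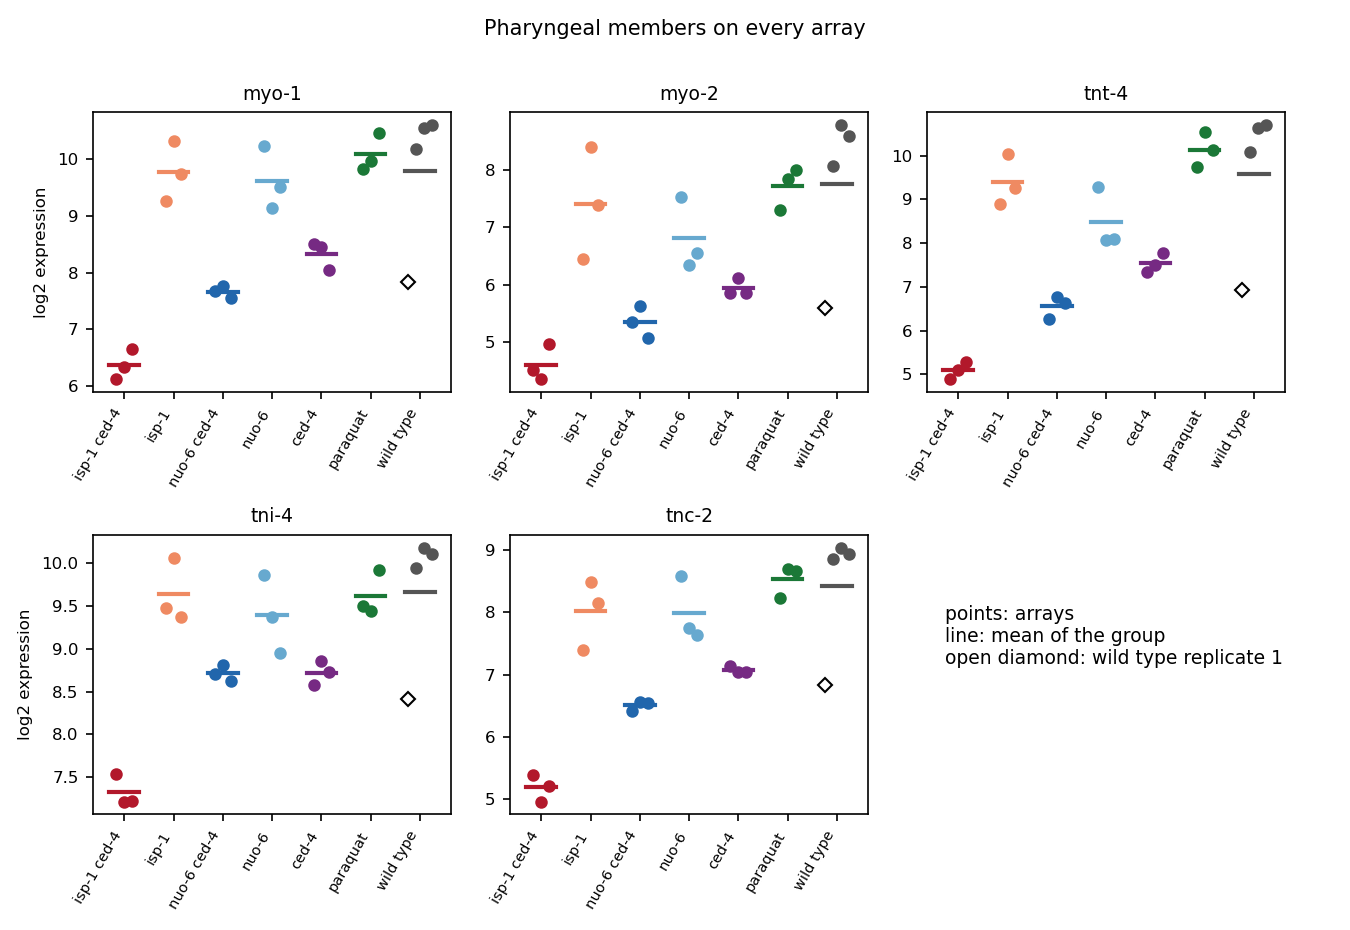
Log2 expression of the 5 pharyngeal members (vertical axis) on every array by group (horizontal axis); points are arrays, lines are group means and the open diamond is wild type replicate 1. The isp-1 ced-4 arrays were lowest in all 5 genes, for example 4.90 to 5.29 in tnt-4 against 8.88 to 10.03 in isp-1, and wild type replicate 1 lay below the ced-4 arrays in each.

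The isp-1 ced-4 worms were also below ced-4 worms, the comparison that asks what isp-1 adds when ced-4 is already mutant. Of the 34 members 17 fell and 2 rose, where 20.9% of probe sets were called lower and 31.2% higher. The pharyngeal median was -1.88, against -0.41 for the other members and 0.17 for all probe sets. myo-1 was 8.50, 8.46 and 8.05 on the ced-4 arrays, and the double mutant's values given above were lower by 1.96 (SE 0.51, limma adjusted p = 0.00402). tnt-4 was 7.34, 7.49 and 7.78 on the ced-4 arrays and fell by 2.44 in the double mutant (SE 0.67, limma adjusted p = 0.00582). tnc-2 was 7.14, 7.04 and 7.04 on the ced-4 arrays, with a difference of -1.88 (SE 0.43, limma adjusted p = 0.00149). tni-4, at 8.57, 8.86 and 8.74 in ced-4, fell by 1.40 (SE 0.35, limma adjusted p = 0.00278). For myo-2, at 5.85, 6.12 and 5.85 in ced-4, the difference of -1.33 did not pass (SE 0.61, limma adjusted p = 0.0753), although no arrays overlapped. In all 5 pharyngeal genes the double-mutant arrays lay below the ced-4 arrays, as in 27.8% of probe sets.

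In nuo-6 ced-4 worms the fall was smaller. Against nuo-6, 8 members fell and 0 rose by limma, where 18.7% of probe sets were called lower and 11.2% higher. Of the 5 pharyngeal members 3 fell. The pharyngeal median was -1.48, against -0.12 for the other members and -0.09 for all probe sets.

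myo-1 was 7.68, 7.76 and 7.56 in nuo-6 ced-4, against 10.23, 9.14 and 9.50 in nuo-6, a difference of -1.96 (SE 0.51, limma adjusted p = 0.00798). tnt-4 was 6.28, 6.77 and 6.62 in nuo-6 ced-4, against 9.29, 8.08 and 8.09 in nuo-6, a difference of -1.93 (SE 0.67, limma adjusted p = 0.0381). tnc-2 was 6.42, 6.56 and 6.54 in nuo-6 ced-4, against 8.58, 7.74 and 7.64 in nuo-6, a difference of -1.48 (SE 0.43, limma adjusted p = 0.0148). In these 3 genes nuo-6 replicate 1 was the highest nuo-6 array. The call of myo-1 held whichever of the 6 arrays was left out. That of tnc-2 was lost without nuo-6 replicate 1 (adjusted p = 0.0681), and that of tnt-4 was lost whichever of the 6 was left out.

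The other pharyngeal pair did not pass in nuo-6 ced-4. myo-2 was 5.35, 5.63 and 5.07 in nuo-6 ced-4, against 7.52, 6.35 and 6.56 in nuo-6, a difference of -1.46 (SE 0.61, limma adjusted p = 0.0804). tni-4 was 8.71, 8.81 and 8.63 in nuo-6 ced-4, against 9.86, 9.37 and 8.96 in nuo-6, a difference of -0.68 (SE 0.35, limma adjusted p = 0.146). The arrays did not overlap in either gene. Non-overlap in the lower direction held for all 5 pharyngeal members and for 31.1% of all probe sets.

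Against ced-4 alone, nuo-6 ced-4 worms showed no pharyngeal call. Their 5 differences ran from -0.98 for tnt-4 to -0.01 for tni-4, with a median of -0.59, against -0.11 for the other members and -0.03 for all probe sets. Of the 34 members 3 fell, where 8.47% of probe sets were called lower. The limma test called 0 of 5 pharyngeal genes, although in 4 of the 5 the double-mutant arrays lay below every ced-4 array (29.1% of all probe sets did so). These tests used the spread shared over all groups, wild type replicate 1 included. With only the groups compared in the fit, more of the 34 members were called, as given in the closing part.

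Against wild type, ced-4 worms had lower pharyngeal transcripts, and the values depend on wild type replicate 1. Of the 34 members 5 fell and 1 rose, where 9.3% of probe sets were called lower and 6.51% higher. Of the 5 pharyngeal members 4 fell. Their median was -1.46, against -0.10 for the other members and -0.05 for all probe sets.

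tnt-4, at the ced-4 values given above, was 6.92, 10.09, 10.64 and 10.70 on wild-type replicates 1 to 4, a difference of -2.05 (SE 0.63, limma adjusted p = 0.0338). myo-1 was 7.84, 10.19, 10.55 and 10.60 in wild type, a difference of -1.46 for ced-4 (SE 0.48, limma adjusted p = 0.0463). In both genes the first wild-type array lay below all 3 ced-4 arrays and the other 3 lay above them. The same held for myo-2, which was 5.58, 8.06, 8.78 and 8.58 in wild type (difference -1.81, SE 0.57, limma adjusted p = 0.0388). It held for tnc-2, which was 6.83, 8.86, 9.03 and 8.94 in wild type (difference -1.34, SE 0.40, limma adjusted p = 0.0303). It held too for tni-4, at 8.42, 9.95, 10.19 and 10.11 in wild type, whose difference of -0.94 did not pass (SE 0.32, limma adjusted p = 0.0559).

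Without wild type replicate 1, 12 members fell and 2 rose in ced-4 worms, where 16.7% of probe sets were called lower and 10.2% higher, and all 5 pharyngeal members were among those that fell. The other 7 were tni-3, tnt-2, tnt-3, mlc-3, unc-54, unc-27 and lev-11, and those that rose were unc-112 and unc-45 (differences 0.47 and 0.53, limma adjusted p = 0.0204 and 0.0353). The pharyngeal differences were then -2.94 for tnt-4 (SE 0.32, limma adjusted p = 2.35e-06), -2.53 for myo-2, -2.11 for myo-1, -1.87 for tnc-2 and -1.36 for tni-4. With all 4 wild-type arrays, the calls of myo-1, myo-2, tnt-4 and tnc-2 were each lost when any 1 of the 6 remaining arrays was left out. Members called against wild type in ced-4 worms numbered 14 without wild type replicate 1, against 0 or 1 when any other array of either group was left out.

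The mitochondrial mutants alone showed no pharyngeal call with all 4 wild-type arrays. In isp-1 worms the 5 differences lay between -0.40 and -0.02, and in nuo-6 worms between -1.10 and -0.17. Without wild type replicate 1, all 5 fell in nuo-6 worms, where 16.1% of probe sets were called lower. tnt-4 then had a difference of -1.99 (SE 0.32, limma adjusted p = 0.00021) and myo-2 of -1.67 (SE 0.38, limma adjusted p = 0.00316). In isp-1 worms 2 of the 5 then fell, where 10.8% were called lower: tnt-4 with a difference of -1.09 (SE 0.32, limma adjusted p = 0.0215) and tnc-2 with -0.93 (SE 0.25, limma adjusted p = 0.012).

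Paraquat left the pharyngeal genes without a call with or without that array. In paraquat-treated worms myo-1 read 9.84, 9.96 and 10.46 and tnt-4 read 9.74, 10.54 and 10.12. Both genes lay inside the wild-type ranges given above, ranges whose low end was wild type replicate 1. Their differences were 0.29 for myo-1 (SE 0.48, limma adjusted p = 0.664) and 0.55 for tnt-4 (SE 0.63, limma adjusted p = 0.517). Both turned negative without wild type replicate 1, at -0.36 and -0.34, and neither passed then. With paraquat myo-2 read 7.31, 7.84 and 7.99, tni-4 read 9.50, 9.44 and 9.92, and tnc-2 read 8.22, 8.70 and 8.66. In myo-2, tni-4 and tnc-2 every paraquat array lay above wild type replicate 1 and below wild type replicates 2 to 4. Among all 34 members, 8 fell and 1 rose without that array, where 16.1% of probe sets were called lower and 27.5% higher. The one that rose was unc-45, with a difference of 0.48 (limma adjusted p = 0.0384).

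Taken per array, the median of the 5 pharyngeal members minus their wild-type mean put the groups in order. It was -3.28 ± 0.16 in isp-1 ced-4, -2.12 ± 0.10 in nuo-6 ced-4, -1.47 ± 0.25 in ced-4, -0.43 ± 0.51 in nuo-6, -0.18 ± 0.58 in isp-1, 0.09 ± 0.23 with paraquat and 0 ± 1.31 in wild type (SD, n = 3 each, n = 4 in wild type). The first 3 groups in that order did not overlap each other, while nuo-6, isp-1, paraquat and wild type did. The wild-type array at -1.95 lay below all ced-4 arrays, and the other 3 lay between 0.39 and 0.81. For the other 29 members the same median was -0.45 ± 0.11 in isp-1 ced-4 and lay between -0.18 and 0 in the remaining groups.

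**Figure D2:**
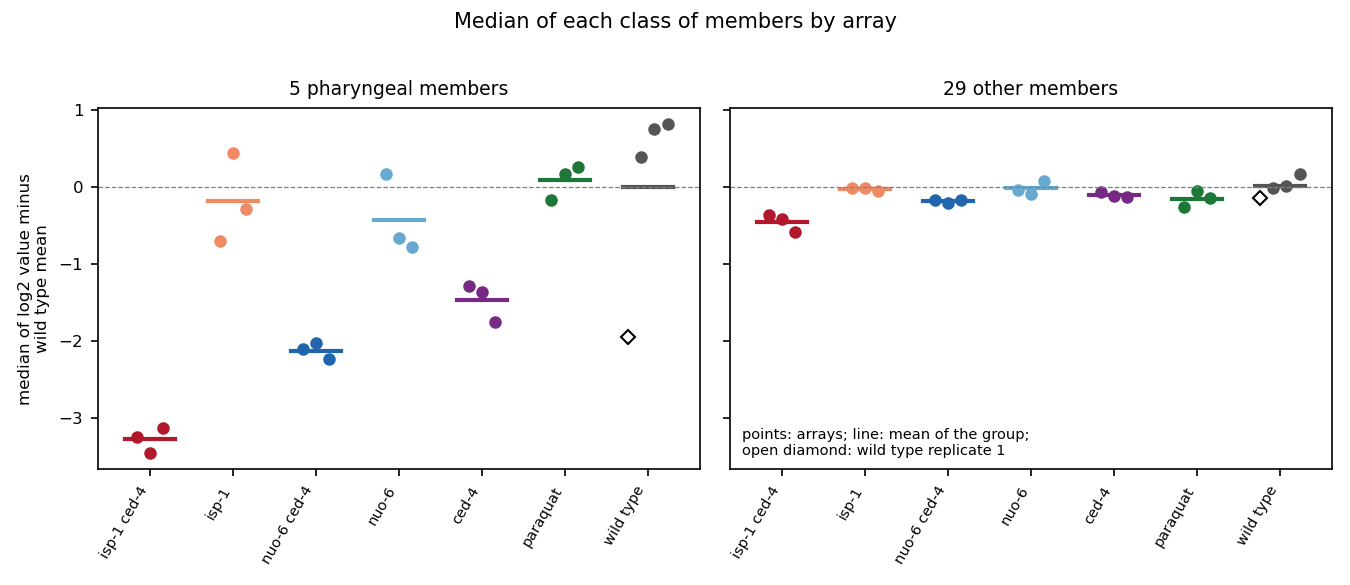
Median over the 5 pharyngeal members and over the 29 other members of the log2 value minus the wild-type mean (vertical axis) on each array by group (horizontal axis); points are arrays, lines are group means and the open diamond is wild type replicate 1. The pharyngeal medians ran down to -3.45 in isp-1 ced-4, and the medians of the other members stayed between -0.58 and 0.16 on all arrays.

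Transcripts of some other tissues also differed between the groups, in orders of their own. The marker list for hypodermis and molt stood 2.70 to 2.72 above its wild-type mean on the ced-4 arrays and 2.52 to 2.65 above it in nuo-6 ced-4, and between -0.06 and 0.10 in isp-1 ced-4. Of its 22 tested markers 19 rose in ced-4 worms, with or without wild type replicate 1. Of all probe sets 6.51% were called higher with all arrays and 10.2% without that array. The sperm list stood at -3.17 to -1.14 relative to its wild-type mean in isp-1 ced-4, at -2.05 to -1.71 with paraquat and at -0.40 to -0.32 in ced-4. In nuo-6 ced-4 it stood at -0.17 to -0.14. The oocyte list was 0.51 to 0.77 above in isp-1 ced-4 and 0.81 to 0.88 above with paraquat. Other lists moved less in isp-1 ced-4: intestine stood at -0.29 to -0.19, germline at 0.15 to 0.21 and neurons at 0.02 to 0.19. The part of these tissues in the muscle values was not tested.

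A further marker list held other pharyngeal genes, among them myo-5, which encodes a muscle myosin heavy chain. Of 14 tested, 6 rose and 0 fell by limma in ced-4 against wild type, where 6.51% of probe sets were called higher and 9.3% lower. Those without a call included myo-5 (difference -1.32, limma adjusted p = 0.0641), ifa-1 (-0.91, 0.117) and phat-3 (-0.65, 0.249). Without wild type replicate 1, 6 rose and 4 fell there, the 4 being myo-5, ifa-1, phat-3 and dod-6, where 10.2% were called higher and 16.7% lower. abu-8, abu-14, abu-6 and abu-11, which encode proteins of the pharyngeal cuticle, had differences of 5.99, 5.52, 5.32 and 4.92. In isp-1 ced-4 versus isp-1, 4 of the 14 fell and 0 rose by limma, where 17.2% of probe sets were called lower and 16% higher. The 4 were ifa-1, an intermediate filament gene with a difference of -1.92, phat-4, a pharyngeal gland gene with -2.60, phat-3, also of the gland, with -1.30, and myo-5 with -2.09 (SE 0.50, limma adjusted p = 0.00445).

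The body wall thick filament genes changed in isp-1 ced-4 worms by less than the pharyngeal ones. myo-3, the heavy chain at the centre of the filament, was 8.82, 8.48 and 8.37 in isp-1 ced-4, against 9.31, 9.77 and 9.02 in isp-1 and 9.71, 9.62 and 9.81 in ced-4. Its difference was -0.81 against isp-1 (SE 0.20, limma adjusted p = 0.00523) and -1.16 against ced-4 (SE 0.20, limma adjusted p = 0.000143), and no arrays overlapped in either. unc-54, the major body wall heavy chain, was 11.65, 11.60 and 11.60 in isp-1 ced-4, against 12.27, 12.25 and 12.19 in isp-1. It fell by 0.62 (SE 0.14, limma adjusted p = 0.00303). Against ced-4 the unc-54 difference was -0.41, and median centring of the arrays took that call away (-0.19, adjusted p = 0.217).

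The remaining thick filament genes showed little change there. unc-15, which encodes the paramyosin core, had no call in any of the 8 comparisons, nor had mlc-2, a regulatory light chain. mlc-3, the essential light chain, fell by 0.52 in isp-1 ced-4 versus isp-1 (SE 0.14, limma adjusted p = 0.00905) and had a difference of -0.69 in nuo-6 ced-4 versus nuo-6 (SE 0.14, limma adjusted p = 0.00145). mlc-1, the second regulatory light chain, had its only call with paraquat. unc-15, mlc-2, pat-10 and act-3 were the 4 members with a wild-type level over 13. Among them 0 of 32 differences passed limma's test and the largest was 0.31, whereas 73 of the 240 differences of the other 30 members passed. Probe sets this bright lie near the top of a scale that ran to 15.25, and compression at that level was not tested.

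Several troponin genes of the thin filament fell in the double mutants. tni-1, a troponin I of body wall muscle, was 8.95, 8.15 and 7.98 in isp-1 ced-4, against 10.09, 10.01 and 9.63 in isp-1 and 10.49, 10.43 and 10.55 in ced-4. It fell by 1.55 against isp-1 (SE 0.25, limma adjusted p = 0.000445) and had a difference of -2.13 against ced-4 (SE 0.25, limma adjusted p = 3.84e-06, 4.37-fold lower). No arrays of these groups overlapped. In nuo-6 ced-4 worms tni-1 stayed at 9.85 to 9.98, and no call was made there.

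tni-3, another troponin I, also fell in isp-1 ced-4. It was 8.80, 9.06 and 9.47 in isp-1 ced-4, against a mean of 10.80 ± 0.19 (SD, n = 3, lowest 10.62) in isp-1, a difference of -1.69 (SE 0.39, limma adjusted p = 0.00366). It was 9.88, 9.75 and 9.78 in nuo-6 ced-4, against 11.02, 10.98 and 10.85 in nuo-6, a difference of -1.15 (SE 0.39, limma adjusted p = 0.0356) that was lost whichever of the 6 arrays was left out. In ced-4 worms it was 9.90, 9.74 and 9.82, against 8.80, 10.78, 10.96 and 11.18 in wild type, where replicate 1 was again the low array. That difference did not pass with all arrays and was -1.15 without replicate 1 (SE 0.15, limma adjusted p = 1.89e-05). Like the pharyngeal members, tni-3 had its lowest group mean in isp-1 ced-4 and read low on wild type replicate 1. Its means in nuo-6 ced-4 and ced-4 were alike, at 9.81 and 9.82, with overlapping arrays. The probe set representing tni-3 is of a type that can bind related transcripts, as are those of myo-1, myo-2, myo-3, unc-54, mup-2, tni-1 and several other members. Those representing lev-11, mlc-2, unc-87, unc-60 and unc-52 are of a further type that can also bind other transcripts.

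The troponin T genes were lower in several groups. mup-2, the main body wall troponin T, was 11.36, 11.03 and 10.95 in isp-1 ced-4, against 11.89, 12.25 and 11.87 in isp-1, with a mean of 12.16 ± 0.08 in ced-4 (SD, n = 3). It fell by 0.89 against isp-1 (SE 0.12, limma adjusted p = 0.000147) and by 1.05 against ced-4 (SE 0.12, limma adjusted p = 3.56e-06). tnt-3, also a troponin T, was 5.75, 5.40 and 5.33 in isp-1 ced-4, against 5.96, 5.95 and 6.40 in isp-1, a difference of -0.61 (SE 0.19, limma adjusted p = 0.0181). These 2 genes were the members called lower than wild type in both mitochondrial mutants and with paraquat, comparisons that share the wild-type arrays.

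The wild-type values of mup-2 were 12.30, 12.42, 12.45 and 12.59. Against them it was 11.89 to 12.25 in isp-1 (difference -0.44, limma adjusted p = 0.012), 11.93 to 12.04 in nuo-6 (-0.44, 0.00718) and 12.02 to 12.12 with paraquat (-0.39, 0.0124). None of the 3 groups overlapped wild type. The calls of mup-2 and tnt-3 in these 3 groups were kept without wild type replicate 1. tnt-3 was 6.49, 6.92, 6.94 and 7.16 in wild type, with 5.95 to 6.40 in isp-1, 5.86 to 6.13 in nuo-6 and 5.96 to 6.45 with paraquat. Its differences were -0.77 in isp-1 (limma adjusted p = 0.0044), -0.90 in nuo-6 (limma adjusted p = 0.000936) and -0.73 with paraquat (limma adjusted p = 0.00235), and -0.53 in ced-4 (limma adjusted p = 0.0484). All arrays of those groups were below all wild-type arrays. In nuo-6 ced-4 both genes were again below ced-4, with differences of -0.44 for mup-2 (limma adjusted p = 0.0193) and -0.75 for tnt-3 (limma adjusted p = 0.00966).

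The other thin filament members changed less. unc-27, a body wall troponin I, and tnt-2, a troponin T, fell in both double mutants against their mitochondrial single mutants. unc-27 had a difference of -0.46 in isp-1 ced-4 (limma adjusted p = 0.00961) and -0.62 in nuo-6 ced-4 (limma adjusted p = 0.00135). tnt-2 was 11.96, 11.76 and 11.87 in nuo-6 ced-4, against 12.62, 12.65 and 12.66 in nuo-6, a difference of -0.78 (SE 0.14, limma adjusted p = 0.000444), and -0.46 in isp-1 ced-4 versus isp-1 (limma adjusted p = 0.0169). unc-87, a calponin-like actin bundler, fell by 0.39 in isp-1 ced-4 versus isp-1 (SE 0.11, limma adjusted p = 0.0128). pat-10, the body wall troponin C, and act-3 had no call in any comparison. act-4, an actin, rose by a difference of 0.29 in isp-1 ced-4 versus ced-4 (limma adjusted p = 0.0362), a call lost with cyclic loess scaling (0.18, adjusted p = 0.156).

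unc-60, the actin depolymerising factor cofilin, was the only member that rose in isp-1 ced-4 versus isp-1. It was 12.44, 12.64 and 12.38 in isp-1 ced-4, against 11.91, 11.89 and 12.03 in isp-1 and 11.89, 11.82 and 11.75 in ced-4. The difference was 0.55 against isp-1 (SE 0.11, limma adjusted p = 0.00141) and 0.67 against ced-4 (SE 0.11, limma adjusted p = 8.83e-05). Of its other 4 probe sets, 2 rose against isp-1 (1.33 and 0.95), 1 had a difference of 0.55 without a call, and 1 fell by 0.60 (limma adjusted p = 0.00103). The gene makes a non-muscle and a muscle form, and which form each probe set reads is not given in the sources used here.

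lev-11, the tropomyosin gene, likewise depended on the probe set. It makes several isoforms, some of them used in the pharynx. The probe set representing it fell by 0.49 in isp-1 ced-4 versus isp-1 (SE 0.16, limma adjusted p = 0.0274). A different one was 2.58, 2.74 and 2.51 in isp-1 ced-4, against 4.44, 6.28 and 6.09 in isp-1, a difference of -2.99 (limma adjusted p = 0.00512). It was 2.77, 2.87 and 2.84 in ced-4, against 2.83, 6.21, 6.65 and 6.39 in wild type, a difference of -2.70 (limma adjusted p = 0.0121). This probe set thus read low on wild type replicate 1 as the pharyngeal genes did, and its ced-4 and double-mutant values lay below the filter level of 3.68. A further lev-11 probe set had a difference of 0.59 in isp-1 ced-4 versus isp-1, with no call.

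The giant and M-line proteins formed the next group. unc-89, an obscurin-like M-line protein, fell in isp-1 ced-4 by 0.70 against isp-1 (SE 0.18, limma adjusted p = 0.00717) and by 1.07 against ced-4 (SE 0.18, limma adjusted p = 0.000132). Its levels were 9.38 to 9.89 in isp-1 ced-4, against 10.07 to 10.52 in isp-1 and 10.55 to 10.75 in ced-4. unc-22, twitchin, fell by 0.70 against isp-1 (SE 0.23, limma adjusted p = 0.027) and by 0.78 against ced-4 (SE 0.23, limma adjusted p = 0.00964). ttn-1, the titin-like protein, fell by 0.49 against isp-1 (SE 0.16, limma adjusted p = 0.0266) and by 0.79 against ced-4 (SE 0.16, limma adjusted p = 0.000615). The calls of unc-22 and ttn-1 against isp-1 did not survive median centring (adjusted p = 0.0708 and 0.166), whereas that of unc-89 did. dim-1, an immunoglobulin-repeat protein, fell by 0.68 against ced-4 (limma adjusted p = 0.000713), and its difference of -0.29 from isp-1 was not called.

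The probe set of unc-98, a zinc-finger protein of the M-line, read near the filter level of 3.68 in the lower groups. It was 3.60, 3.51 and 3.59 in isp-1 ced-4, against 5.10, 4.82 and 4.45 in isp-1, a difference of -1.22 (SE 0.25, limma adjusted p = 0.00151). It was 3.87, 3.47 and 3.95 in nuo-6 ced-4, against 4.91, 4.60 and 4.38 in nuo-6, a difference of -0.87 (SE 0.25, limma adjusted p = 0.0133). unc-45, the myosin chaperone, was 7.47, 7.53 and 7.57 in nuo-6 ced-4, against 8.21, 8.05 and 7.94 in ced-4. That was its single call with all arrays (difference -0.54, SE 0.18, limma adjusted p = 0.0461), and it was lost whichever of the 6 arrays was left out.

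The attachment proteins join the filaments to the membrane at dense bodies and M-lines. unc-112, a kindlin of the integrin complex, was 9.11, 9.02 and 8.74 in isp-1 ced-4, against 9.75, 9.67 and 9.73 in isp-1 and 9.83, 9.70 and 9.84 in ced-4. It fell by 0.76 against isp-1 (SE 0.14, limma adjusted p = 0.000894) and by 0.84 against ced-4 (SE 0.14, limma adjusted p = 0.000111). Against wild type, which read 9.29, 9.24, 9.08 and 9.65, unc-112 rose in isp-1 (difference 0.40, limma adjusted p = 0.0348) and in ced-4 (difference 0.47, limma adjusted p = 0.0193). It was the only member called higher than wild type in isp-1 or in ced-4 with all arrays. The isp-1 call was lost without wild type replicate 1 (0.39, adjusted p = 0.0536).

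unc-52, the basement membrane perlecan, fell by 1.05 in isp-1 ced-4 versus isp-1 (SE 0.24, limma adjusted p = 0.00308), and its other 2 probe sets fell by 1.51 and 1.39. atn-1, alpha-actinin, fell by 0.52 against isp-1 (SE 0.19, limma adjusted p = 0.0424) with overlapping arrays, and lost the call without isp-1 replicate 1 (-0.28, adjusted p = 0.246). deb-1, the vinculin of the dense body, had a difference of -0.32 without a call in its representing probe set, against -1.31 (limma adjusted p = 0.000729) in its other one. unc-97, a PINCH adaptor, likewise read 0.05 without a call in one and -1.20 (limma adjusted p = 0.000795) in the other. The plot of probe sets in isp-1 ced-4 versus isp-1 shows these disagreements.

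**Figure D3:**
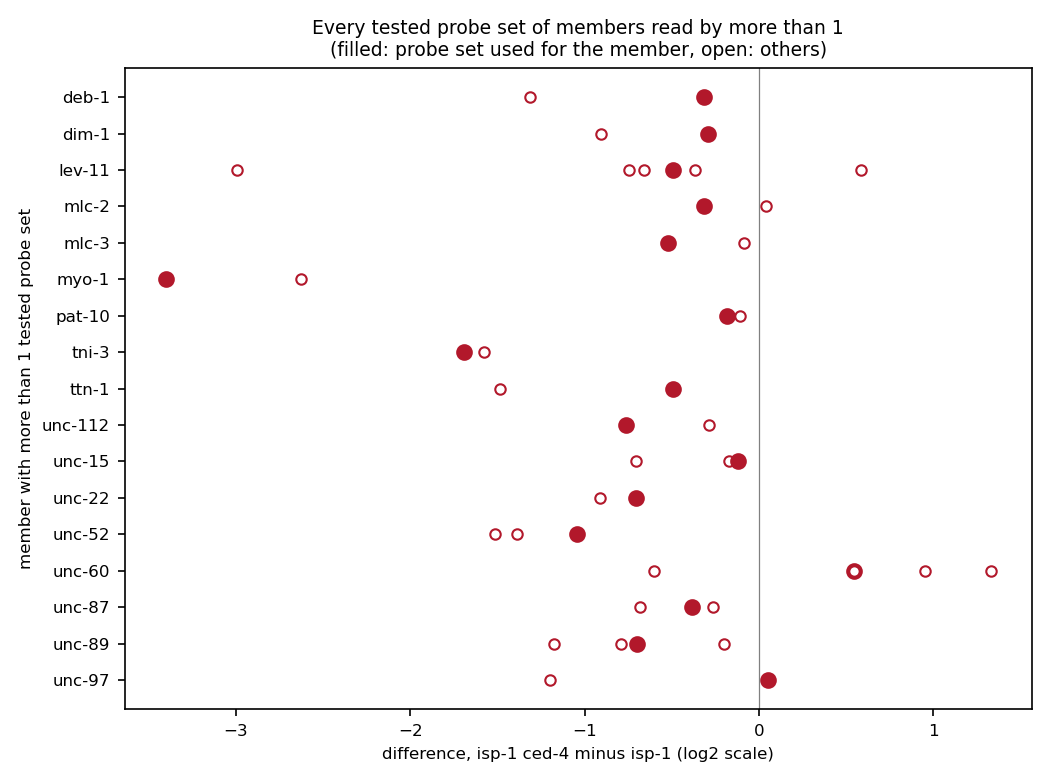
Difference between isp-1 ced-4 and isp-1 on the log2 scale (horizontal axis) for every tested probe set of the members read by more than 1 (vertical axis, one gene a line); filled points represent the member and open points are its other probe sets. The 2 myo-1 probe sets lie at -3.40 and -2.63, whereas those of lev-11 run from -2.99 to 0.59 and those of unc-60 from -0.60 to 1.33.

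In the 8 members used mainly in body wall muscle (myo-3, unc-54, unc-22, unc-27, mup-2, tni-1, tni-3 and pat-10), 7 fell in isp-1 ced-4 versus isp-1, with a median of -0.76. In nuo-6 ced-4 versus nuo-6 2 of the 8 fell, with a median of -0.16. Of all probe sets 17.2% were called lower in the isp-1 ced-4 comparison and 18.7% in the nuo-6 ced-4 one. In ced-4 against wild type 0 of the 8 passed limma's test, with a median of -0.17, while 4 of the 5 pharyngeal members did. When wild type replicate 1 was left out, 3 of the 8 fell there: unc-54 (difference -0.39, limma adjusted p = 0.00787), unc-27 (-0.35, 0.029) and tni-3 (-1.15, 1.89e-05). The share of all probe sets called lower in ced-4 was 9.3% with all arrays and 16.7% without that array. Differences of the 5 and of the 8 were not tested against each other, since the genes were grouped with results known.

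Of the 24 calls in isp-1 ced-4 versus isp-1, 16 were kept whichever array of the 2 groups was left out. The other 8, those of unc-22, unc-27, tnt-2, tnt-3, lev-11, unc-87, ttn-1 and atn-1, were lost without at least 1 array. In isp-1 ced-4 versus ced-4, 15 of 19 calls were kept, the exceptions being unc-54, act-4, unc-52 and atn-1. In nuo-6 ced-4 versus nuo-6, 4 of 8 were kept, those of myo-1, unc-27, tnt-2 and mlc-3, and none of the 3 calls in nuo-6 ced-4 versus ced-4 was.

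**Figure D4:**
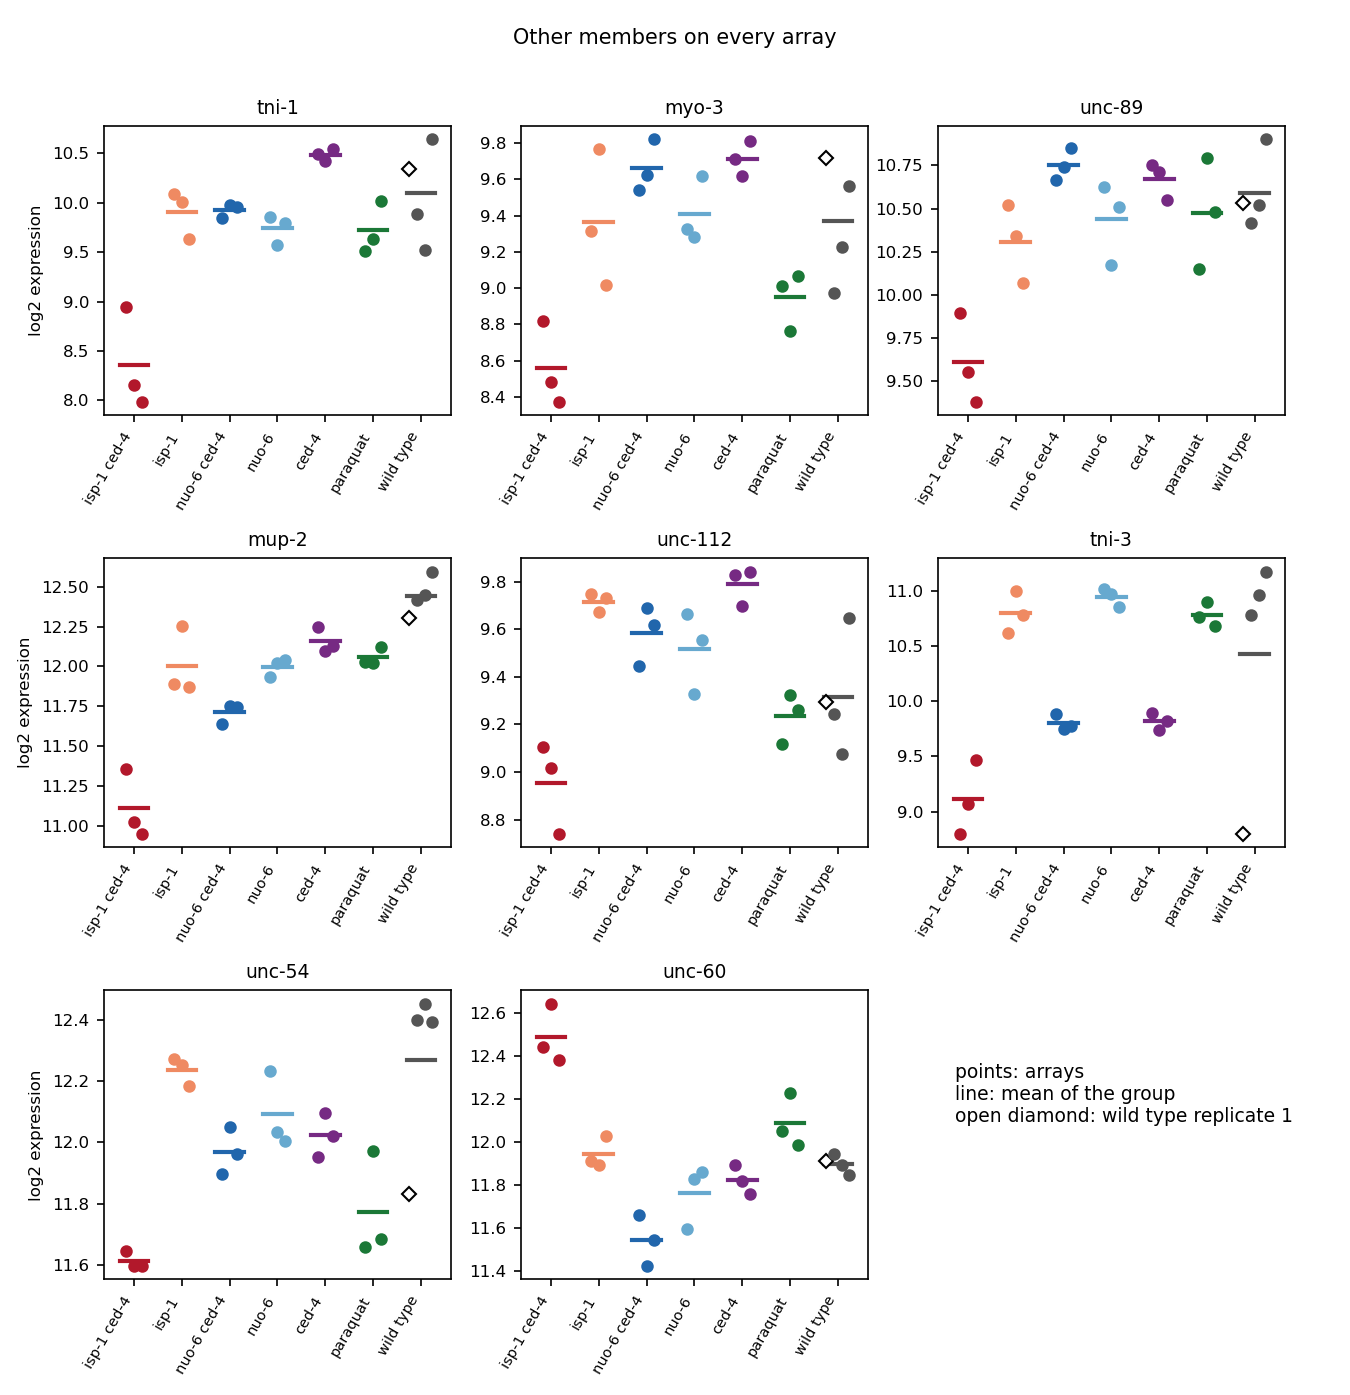
Log2 expression (vertical axis) of tni-1, myo-3, unc-89, mup-2, unc-112, tni-3, unc-54 and unc-60 on every array by group (horizontal axis); points are arrays, lines are group means and the open diamond is wild type replicate 1. The isp-1 ced-4 arrays of tni-1 lay between 7.98 and 8.95, below all other groups, and in tni-3 the wild-type array at 8.80 lay below the other 3.

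Whether the effect of isp-1 depended on ced-4 was tested as an interaction, the difference of isp-1 ced-4 from ced-4 minus that of isp-1 from wild type. Of the 34 members 6 were lower and 1 was higher, where 9.7% and 8.99% of probe sets were called in those directions. tni-1 had an interaction of -1.94 on the log2 scale, and unc-112 of -1.24. myo-3 had -1.15, unc-98 -1.03, unc-89 -0.78 and mup-2 -0.61, while unc-60 had 0.62. The call of unc-98 was lost without wild type replicate 1 (-0.80, adjusted p = 0.0511) and the other 6 were kept. The 5 pharyngeal interactions lay between -2.24 and -0.99 and did not pass, the closest being tni-4 (-1.37, SE 0.47, limma adjusted p = 0.0509). Without wild type replicate 1, 3 of them passed: myo-1 at -1.29 (limma adjusted p = 0.0269), tnt-4 at -1.36 (0.0437) and tni-4 at -0.96 (0.0313), where 10.3% of probe sets were called lower. For nuo-6 no interaction passed limma's test with or without that array, where 4.98% of probe sets were called lower and 5.87% higher with all arrays, and 6.71% and 8.79% without it. The pharyngeal interactions of nuo-6 lay between -0.50 and 0.36 with all arrays, and between 0.15 and 1.08 (median 0.68) without wild type replicate 1.

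Paraquat-treated worms, set against untreated wild type, had lower levels of several body wall genes. Of the 34 members 7 fell and 0 rose by limma, where 15.1% of probe sets were called lower and 26.4% higher. The median of the other 29 members was -0.19, against 0.13 for all probe sets. Besides mup-2 and tnt-3, the genes that fell were ttn-1, unc-54, mlc-1, dim-1 and deb-1. ttn-1 was 8.98, 9.11 and 8.81 with paraquat, against 9.73, 9.46, 9.69 and 9.70 in wild type, a difference of -0.68 (SE 0.15, limma adjusted p = 0.00142). mlc-1 was 12.30, 12.18 and 12.31 with paraquat, against 12.62, 12.67, 12.68 and 12.79 in wild type, a difference of -0.42 (SE 0.09, limma adjusted p = 0.000918). unc-54 was 11.66, 11.97 and 11.69 with paraquat, against 11.83, 12.40, 12.45 and 12.39 in wild type, a difference of -0.50 (SE 0.13, limma adjusted p = 0.0053). Arrays were apart for ttn-1 and mlc-1 and overlapped for unc-54 through wild type replicate 1.

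dim-1 was 11.60, 11.63 and 11.75 with paraquat, against 12.03, 11.98, 11.91 and 12.35 in wild type (difference -0.40, SE 0.13, limma adjusted p = 0.0195). deb-1 was 9.38, 9.22 and 9.27 with paraquat, against 9.86, 9.58, 9.52 and 9.62 in wild type (difference -0.35, SE 0.13, limma adjusted p = 0.0318). Both were separated from wild type on every array, and both lost the call with median centring (adjusted p = 0.0918 for dim-1 and 0.188 for deb-1). deb-1 also lost it without wild type replicate 1 (-0.28, adjusted p = 0.0843), and lev-11 (-0.40, adjusted p = 0.0238) and atn-1 (-0.47, adjusted p = 0.0493) were called lower.

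With all arrays, few members were called in the mitochondrial single mutants. In isp-1 worms 3 members fell and 1 rose, where 9.63% of probe sets were called lower and 12.3% higher. Besides mup-2, tnt-3 and unc-112, ttn-1 fell by 0.44 there (SE 0.15, limma adjusted p = 0.0442), with overlapping arrays, a call lost without wild type replicate 1 (-0.41, adjusted p = 0.0785). Of these 4 calls only that of tnt-3 was kept whichever array of the 2 groups was left out. In nuo-6 worms mup-2 and tnt-3 were the 2 that fell and 0 rose by limma, where 14.8% of probe sets were called lower and 18% higher. Both calls were kept whichever array was left out. Without wild type replicate 1, 8 members fell in nuo-6 worms, where 16.1% of probe sets were called lower. They were the 5 pharyngeal ones, mup-2, tnt-3 and unc-54. A further unc-22 probe set was 7.34, 6.91 and 6.98 in nuo-6, against 4.83, 5.33, 5.94 and 5.50 in wild type, a difference of 1.68 (limma adjusted p = 0.000609), whereas the one representing unc-22 had no call.

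**Figure D5:**
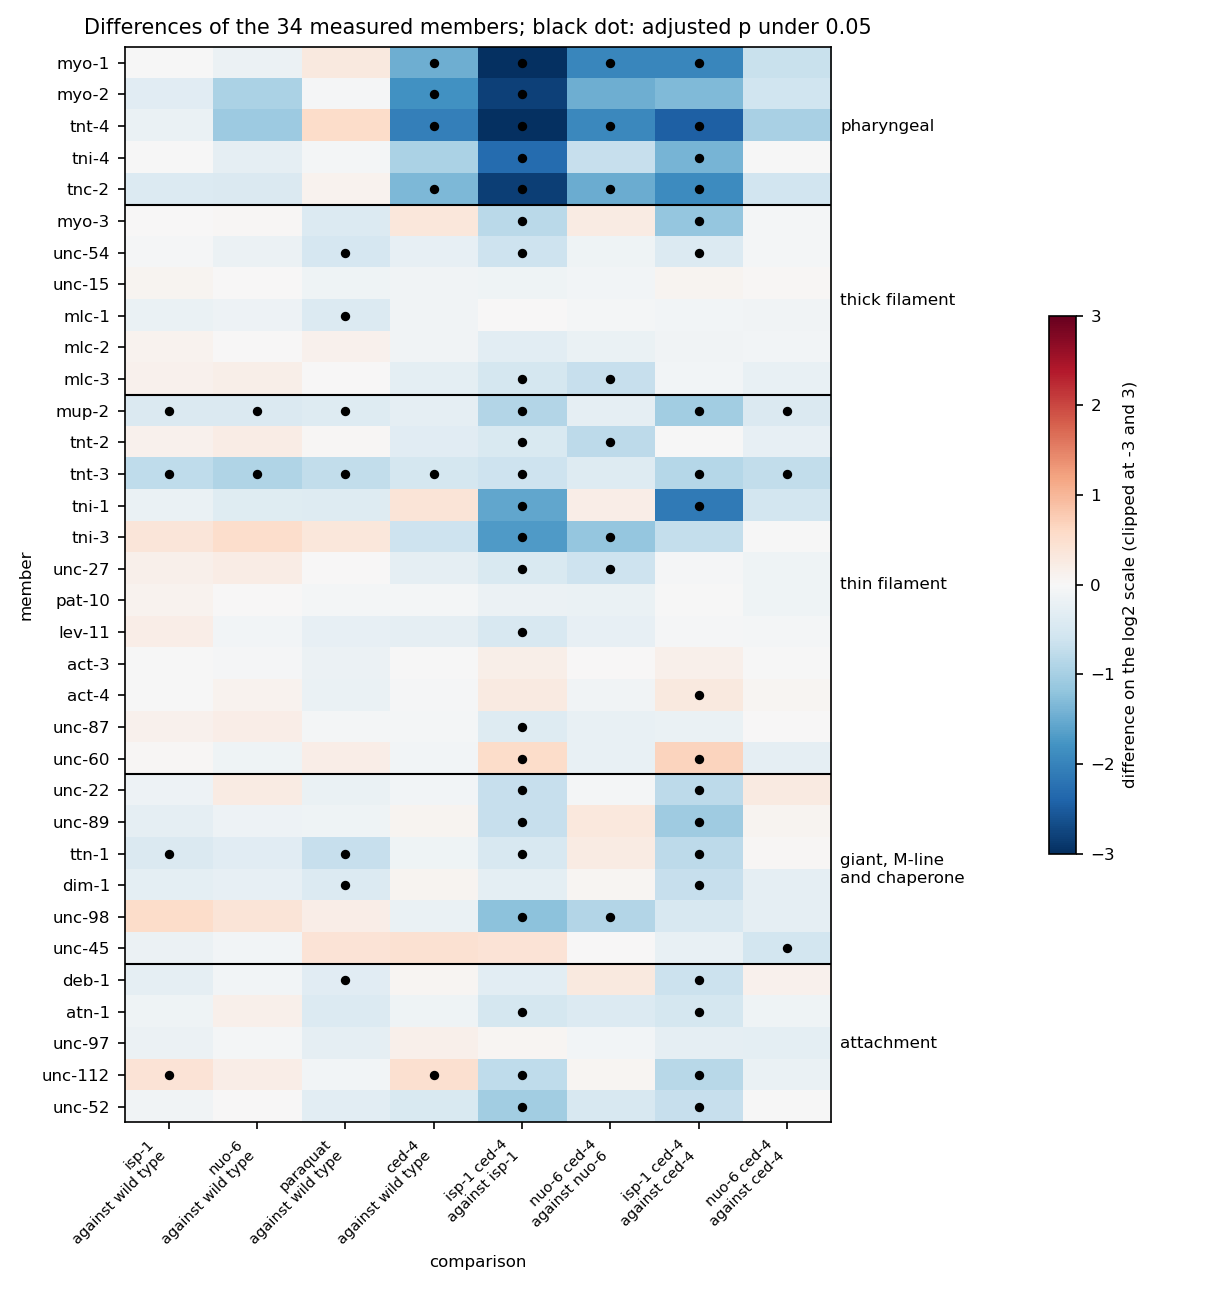
Differences on the log2 scale (colour, clipped at -3 and 3) of the 34 measured members (vertical axis, grouped by role) in the 8 comparisons (horizontal axis); black dots mark an adjusted p under 0.05. The column for isp-1 ced-4 versus isp-1 holds 23 members that fell and 1 that rose, and the 5 pharyngeal members carry the deepest differences, from -2.32 to -4.29.

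Other genes of the contractile system were read from 7 lists chosen around the members. In the calcium and excitation list 8 of 16 tested genes fell and 1 rose in isp-1 ced-4 versus isp-1, where 17.2% of probe sets were called lower and 16% higher. They included unc-49, a GABA receptor (difference -1.25, SE 0.25, limma adjusted p = 0.00141), egl-19, the L-type calcium channel (-1.11, SE 0.28, 0.00605), unc-68, the ryanodine receptor (-0.69, SE 0.17, 0.00553), and twk-18, a potassium channel (-0.68, SE 0.14, 0.00164). Against ced-4 again 8 fell and 1 rose, where 20.9% were called lower and 31.2% higher. jph-1, junctophilin, was higher there (difference 1.67, SE 0.36, limma adjusted p = 0.000998). In nuo-6 ced-4 versus nuo-6 1 of the 16 fell, where 18.7% of probe sets were called lower. In ced-4 against wild type 2 fell, where 9.3% were called lower. Without wild type replicate 1, 3 fell, where 16.7% were called lower.

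In the attachment and dense body list 11 of 26 genes fell and 1 rose in isp-1 ced-4 versus isp-1. Of all probe sets 17.2% were called lower and 16% higher there. unc-96, an M-line protein, had a difference of -1.59 (SE 0.35, limma adjusted p = 0.00241) and unc-95, a LIM-domain protein, of -1.48 (SE 0.23, limma adjusted p = 0.000266). cpna-1, a copine-domain protein of the integrin adhesions, had -0.93 and epi-1, a laminin chain, -0.86. Against ced-4, 14 of the 26 fell and 1 rose, where 20.9% of probe sets were called lower and 31.2% higher. In ced-4 against wild type 4 rose and 0 fell by limma, where 6.51% of probe sets were called higher and 9.3% lower. Those that rose were led by pat-9, a zinc-finger gene, with a difference of 2.29 (SE 0.25, limma adjusted p = 2e-06). Without wild type replicate 1, 5 rose and 1 fell, where 10.2% were called higher and 16.7% lower.

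The actin regulators went both ways. In the thin filament dynamics list 6 of 21 fell and 4 rose in isp-1 ced-4 versus isp-1. Of all probe sets 17.2% were called lower and 16% higher there. clik-2, a calponin-like gene, had a difference of -2.74 (SE 0.44, limma adjusted p = 0.00039), and tth-1, thymosin beta, of 2.47 (SE 0.33, limma adjusted p = 0.000109). cpn-3 and clik-1, further calponin-like genes, had -0.62 and -0.56. In nuo-6 ced-4 versus nuo-6, 7 fell and 0 rose by limma, where 18.7% and 11.2% of probe sets were called in those directions. Those included tmd-2 and unc-94, both tropomodulins, with differences of -1.87 and -1.68. Both are capping proteins of the thin filament's pointed end.

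The remaining lists also held calls in both directions in isp-1 ced-4 versus isp-1, where 17.2% of probe sets were called lower and 16% higher. Of 14 myosin chaperone and turnover genes, 5 rose and 4 fell in isp-1 ced-4 versus isp-1, among them hsp-1, an Hsp70 chaperone (difference 0.53), ufd-2, a ubiquitin ligase that acts on unc-45 (0.69), and the small heat shock genes hsp-25 and hsp-12.1 (-0.64 and -1.19). Of 15 non-muscle myosin and actin genes, 5 rose and 2 fell, with nmy-2, a non-muscle myosin heavy chain, at 0.47, and hum-4 and hum-7, unconventional myosins, at -1.30 and -1.02. Of 6 tested genes of the dystrophin complex 1 rose and 2 fell. Of 7 tested muscle transcription factors 2 rose, hnd-1 (0.72) and sem-2 (1.40), and 1 fell, unc-120, the SRF-like muscle regulator (-1.10, SE 0.27, limma adjusted p = 0.0055). sem-2 was also higher in ced-4 than in wild type, with a difference of 3.05. With paraquat 4 of the 7 rose and 0 fell by limma with or without wild type replicate 1. Of all probe sets 26.4% were called higher with all arrays and 27.5% without that array. With all arrays hnd-1 had the smallest adjusted p (difference 1.09, SE 0.15, limma adjusted p = 1.86e-05).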

How the data were processed

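Whole-worm RNA of 22 samples was hybridised to Affymetrix C. elegans arrays. The values are those of the table the authors deposited, and are log2 expression values. The submitters' processing notes name GCRMA, and the log base, which they do not state, was taken from the range of 0.926 to 15.25. After 77 control probe sets were removed, 22548 remained. Genes were named through GEO's platform annotation, updated to current symbols with RefSeq identifiers. A single symbol was found for 20766 probe sets, several for 887 (left unnamed) and none for 895.

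The 12639 probe sets at or above the table's median (3.68) on at least 3 arrays were tested in R 4.3.3 by limma 3.58.1 (functions lmFit and eBayes, 1 means model over 7 groups, two-sided, Benjamini-Hochberg over all probe sets tested, threshold 0.05). A model on simulated data with known changes was run as a check. No 2 arrays were identical. Precision is limited by the few arrays of each group.

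The members, the class of pharyngeal genes and the further lists were chosen with earlier results of these data known. Members were given array by array by rule: up to 6 called members per comparison with the largest absolute difference and no overlap of arrays, and every pharyngeal member. From each further list at most 4 genes with the smallest adjusted p were named. Further probe sets of members, unc-54, unc-60 and unc-112 array by array, phat-3 beside its list, and myo-5 were chosen after their values were seen. Alternatives were no filter and a lower filter, median centring, cyclic loess, a block for the replicate number, trend and robust variance, a fit on the groups compared alone, the mean of a gene's probe sets, a narrower body wall class and leaving out each array. The alternative without the first arrays of wild type and isp-1 was chosen after seeing the data.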

Additional observations from a re-analysis of the deposited data

Results flagged for a closer look

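In the wild-type group of 4 arrays, replicate 1 was far below the other 3 in 7 of the 34 members. The gap to the nearest array, as a share of the group's whole range, was 0.849 for myo-1, 0.903 for unc-54, 0.839 for tnt-4, 0.833 for tni-3, 0.864 for tni-4, 0.919 for tnc-2 and 0.986 for unc-87, where a share above 0.829 marks an array as far from the rest. The median of the pharyngeal members gave 0.848 on the same array, and the pharyngeal median minus that of the other members gave 0.863. ttn-1 was marked by another array, wild type replicate 2, at 0.849. Chance marks about 1 in 20 groups when each is taken alone. The members were read on the same 4 arrays, so their marks are not independent.

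For 7 members the effect of isp-1 in ced-4 worms differed from its effect in worms with intact ced-4, by the interaction term of the limma fit. The differences of differences on the log2 scale were -1.94 for tni-1, -1.24 for unc-112, -1.15 for myo-3, -1.03 for unc-98, -0.78 for unc-89, -0.61 for mup-2 and 0.62 for unc-60.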

How the results depend on the processing

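Counts of members called depended on the fit where wild type was the comparison. With the replicate block they were 2 for isp-1, 4 for paraquat and 1 for ced-4, against 4, 7 and 6. With only the groups compared in the fit they were 0 for isp-1, 1 for nuo-6, 3 for paraquat and 0 for ced-4, 11 for nuo-6 ced-4 versus ced-4 (3 with all arrays), and 4 for the isp-1 interaction (7). With the mean of a gene's probe sets they were 2 for isp-1, 5 for nuo-6, 13 for nuo-6 ced-4 versus nuo-6 (8) and 1 for the nuo-6 interaction (0). With no filter ced-4 had 3. Without the first arrays of wild type and isp-1 there were 2 for isp-1, 8 for nuo-6 and 15 for ced-4. The pharyngeal minus other median moved to 0.12 with cyclic loess for paraquat (0.31), to -2.07 and -1.14 with the narrower body wall class for isp-1 ced-4 versus isp-1 and against ced-4, and, without both first arrays, to -0.23 for paraquat, -1.97 for ced-4 and -2.82 for isp-1 ced-4 versus isp-1.

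Leaving out 1 array at a time gave 1 to 4 members called for isp-1, 2 to 8 for nuo-6, 6 to 9 for paraquat, 0 to 14 for ced-4, 19 to 24 for isp-1 ced-4 versus isp-1, 4 to 7 for nuo-6 ced-4 versus nuo-6, 15 to 19 for isp-1 ced-4 versus ced-4, 1 to 2 for nuo-6 ced-4 versus ced-4 and 4 to 9 for the isp-1 interaction. The pharyngeal minus other median then ran from -0.90 to 0.19 for isp-1, -0.92 to -0.17 for nuo-6, -0.23 to 0.48 for paraquat, -1.97 to -1.13 for ced-4, -2.82 to -2.15 for isp-1 ced-4 versus isp-1, -1.53 to -1.36 for isp-1 ced-4 versus ced-4, -0.60 to -0.45 for nuo-6 ced-4 versus ced-4 and -1.53 to -1.04 for nuo-6 ced-4 versus nuo-6.

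Only values without a call changed sign. With the replicate block these were myo-1 (0.25), tnt-4 (0.17) and tni-4 (0.13) in isp-1, myo-1 (0.10) in nuo-6, and myo-2 (0.24) and tni-4 (0.10) with paraquat. Median centring gave 0.08 for myo-2 and 0.08 for tni-4 with paraquat, and cyclic loess -0.14 for tnc-2 with paraquat and 0.05 for tni-4 in nuo-6 ced-4 versus ced-4. Without both first arrays myo-1, tnt-4 and tnc-2 with paraquat were at -0.36, -0.34 and -0.42. Leaving out 1 array gave, for isp-1, -0.67 to 0.25 in myo-1, -1.07 to 0.14 in myo-2, -1.09 to 0.17 in tnt-4 and -0.44 to 0.15 in tni-4. It gave -0.82 to 0.10 in myo-1 for nuo-6, and -0.08 to 0.06 in tni-4 for nuo-6 ced-4 versus ced-4. For paraquat it gave -0.36 to 0.56 in myo-1, -0.76 to 0.30 in myo-2, -0.34 to 0.92 in tnt-4, -0.46 to 0.13 in tni-4 and -0.42 to 0.32 in tnc-2.

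The deviations of samples with the same replicate number correlated at -0.246 to 0.206, and in 0 of 8 comparisons were all pairs over 0.1. These 8 did not include isp-1 with nuo-6, and whether arrays of the same number shared a batch was not tested. Median centring moved the median of all probe sets tested from 0.029 to 0.228 in isp-1 ced-4 versus isp-1 and from 0.171 to 0.392 against ced-4. It left 18 members called in each. With cyclic loess the calls over all probe sets in isp-1 ced-4 versus ced-4 were 2706 higher and 3193 lower, against 3948 and 2646. Counted as pairs of a called value and an alternative, the call was lost in 193 pairs and kept in 891, and the sign changed in 0. The causes were not tested.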
